A study of Mus musculus and Rattus norvegicus with 53 samples.

Results

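Macrophage transcripts were followed in RNA-seq libraries of Schwann cells (SCs) sorted from mouse sciatic nerve. The set is a list of 34 symbols of genes that macrophages are known to express, and all 34 were found among the 24016 genes of the deposited mouse counts. Rows were taken by symbol and not by a measured value, but the symbols were chosen with earlier results of these data known. Macrophages are phagocytes that enter a cut nerve and, with SCs, clear myelin and the debris of degenerating axons. They recognise debris through Fc receptors, complement C1q and scavenger receptors, signal through adaptors such as Tyrobp, and digest what they take up in lysosomes rich in lysozyme and cathepsins. The colony stimulating factor receptor Csf1r and the transcription factor PU.1, the product of Spi1, maintain the lineage.

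All mice carried a Cre transgene active in the neural crest lineage, from which SCs derive, and a Rosa26 tdTomato reporter. By the study's methods, mice of both sexes aged 6 to 8 weeks had 1 sciatic nerve transected, and cells were sorted on tdTomato alone, so that a library holds whatever passed that gate. The gates were set on nerves without Cre. The study checked purity by staining and flow cytometry and reported negligible contamination by tdTomato-negative cells. It found the SC protein S100β in the vast majority of tdTomato-positive cells from each nerve region. In the first experiment SCs came from the intact contralateral nerve (iSCs), from the distal stump (dSCs) and from the bridge of new tissue between the stumps (bSCs) on day 6, where each region has 4 libraries and each library pools nerves from 3 mice. In the second experiment each library held 1 nerve, with 5 libraries of iSCs, 3 of dSCs on day 1 and on every even day from day 2 to day 10, and 3 of bSCs on every even day from day 4 to day 10. All 47 libraries were made with Smart-seq2, which copies and amplifies full-length polyadenylated RNA from very small samples. Libraries are named by the M number of their labels.

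Between 11435463 and 22617054 reads per pooled library and between 9240883 and 22426128 per single-nerve library were counted on genes. Single-nerve dSCs M1 and bSCs M1 of day 4, which the labels give to the same mouse, had nearly the same counts: chi-square per degree of freedom between them was 3.90, against 46.2 for the next closest pair of single-nerve libraries. They are shown as labelled, and counts that rest on them are also given without both. In 4 single-nerve libraries few genes were detected, between 10042 and 11138 (iSCs M0 and M1, dSCs M1 of day 1 and dSCs M0 of day 2), and the counts of single nerves are also given without these 4. The labelled cell type was checked on 12 SC genes. They summed to between 27253 and 68585 CPM (the standard scaling of counts to library size, here with the TMM factors of edgeR) in pooled iSCs, to between 2024 and 6931 CPM in pooled dSCs and to between 2126 and 5667 CPM in pooled bSCs, with 0 of the 12 at zero throughout any of these groups. In single nerves they summed to between 6868 and 33062 CPM in iSCs, between 1592 and 11137 CPM in dSCs and between 832 and 5562 CPM in bSCs. A list of 8 genes of endoneurial fibroblasts was above the SC genes in every pooled injured library, at 21090 to 32816 CPM in dSCs and 7002 to 13572 CPM in bSCs. In pooled iSCs it summed to 8307 to 36520 CPM and was above the SC genes only in M5. In single nerves it summed to 16004.5 to 24646.5 CPM in iSCs, 8990 to 32465 CPM in dSCs and 9548 to 24003 CPM in bSCs. Of the single-nerve iSCs, M1, M3 and M5 had it above the SC genes, so that it was not particular to injured libraries.

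The promoters of a few members are shown because PU.1 is known to bind the letters GAGGAA, the PU box, in macrophage genes. Sequences of RefSeq promoters were searched over the 250 bases before each start on both strands (GAGGAA or its reverse complement TTCCTC). Of the 34 members, 27 had an entry, and 13 of these (48.1%) held the motif, against 25.9% of the 27025 genes in the table. A match is a description of letters and not a binding site. The stretches below run 5′ to 3′ on the strand of the gene, lie within 250 bases upstream of the RefSeq start, and were located by exact match in NCBIM37, the Ensembl name of mm9, the build of the counts. Capitals mark the motif.
C1qb, complement C1q chain B, chr4:136442116-136442195, minus strand: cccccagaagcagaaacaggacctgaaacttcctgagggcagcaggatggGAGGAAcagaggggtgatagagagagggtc
Cd68, a lysosomal membrane protein, chr11:69479843-69479922, minus strand: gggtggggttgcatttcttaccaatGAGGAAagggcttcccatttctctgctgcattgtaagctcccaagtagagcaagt
Ctss, cathepsin S, chr3:95330507-95330586, plus strand: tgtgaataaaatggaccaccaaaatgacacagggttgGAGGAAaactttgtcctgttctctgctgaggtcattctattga
Mrc1, the mannose receptor, chr2:14150824-14150903, plus strand: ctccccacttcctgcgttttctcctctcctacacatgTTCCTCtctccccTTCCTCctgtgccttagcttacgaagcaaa
No match was found in the windows of Lyz2, Gpnmb or Lgals3, which the results below also turn on.

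The share of all gene counts that fell on the 34 members gives the first view of immune RNA in the sorted cells. In pooled iSCs it was 0.104%, 0.0789%, 0.252% and 0.961% (M1, M2, M4 and M5). In pooled dSCs it was 1.69%, 2.58%, 2.22% and 2.04% (M1, M2, M3 and M5), and in pooled bSCs 1.00%, 1.47%, 0.735% and 0.439% (M1, M2, M3 and M5). The dSC libraries all lay above the others, whereas iSCs M5 stood higher than 2 of the 4 bSC libraries. On the log2 scale the summed, TMM-scaled level was higher by 3.43 in dSCs and by 2.00 in bSCs than in iSCs, and lower by 1.42 in bSCs than in dSCs. Without iSCs M5 the differences from iSCs were 4.16 and 2.74. More macrophages in the sort and more of these RNAs per cell cannot be told apart in bulk libraries.

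In single nerves the share was lowest in iSCs, at 0.0669%, 0.127%, 0.0700%, 0.0950% and 0.260% (M0, M1, M3, M4 and M5). It lay between 0.634% and 1.55% in the 6 dSC libraries of days 1 and 2 (median 0.996%), between 0.474% and 2.55% in the 12 of days 4 to 10 (median 1.31%), and between 0.189% and 2.57% in the 12 bSC libraries (median 1.11%). The only injured library below the highest iSC library was bSCs M3 of day 6. The summed level on the log2 scale was above iSCs by 3.12 in dSCs of days 1 and 2, by 3.29 in dSCs of days 4 to 10 and by 2.90 in bSCs of days 4 to 10, and it was lower by 0.38 in bSCs than in dSCs of the same days. Without the M1 pair of day 4 these values were 3.12, 3.30, 2.90 and -0.40, and without the 4 libraries of few genes 3.36, 3.49, 3.10 and -0.38.

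**Figure D1:**
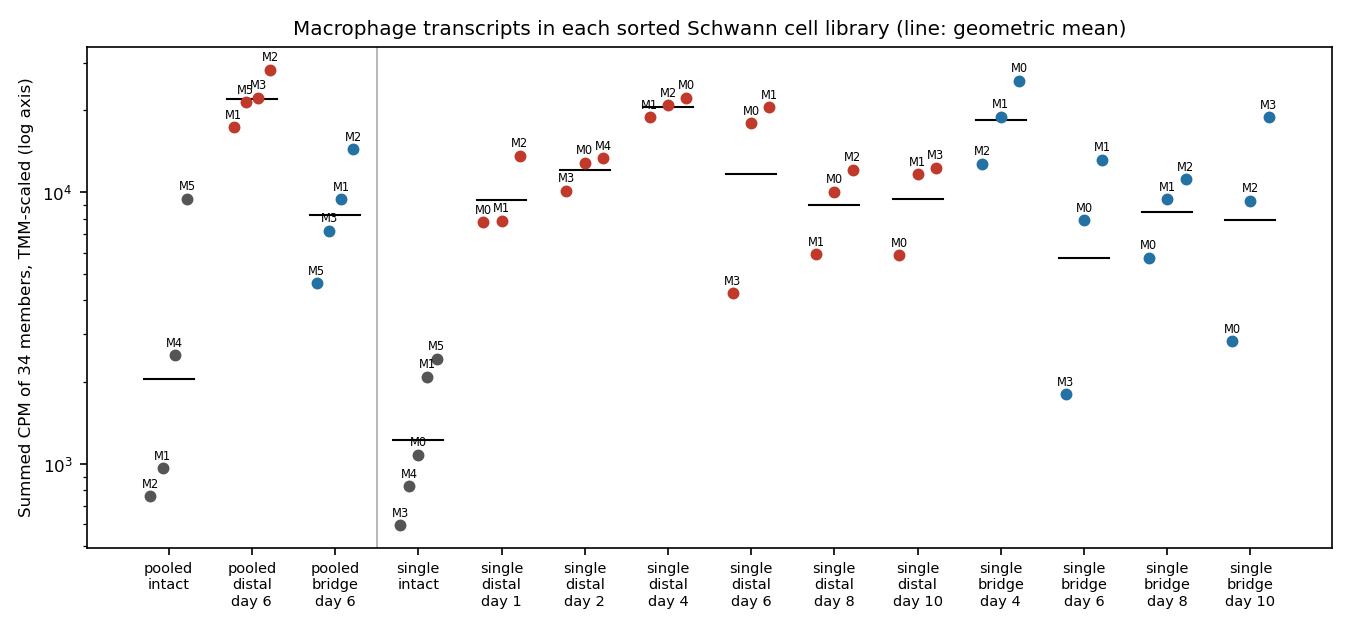
Summed level of the 34 members (TMM-scaled CPM, log axis) in each of the 47 libraries by group, with M numbers at the points and the geometric mean of a group as a line. The 4 pooled dSC libraries lie above all pooled iSC and bSC libraries, and day 4 has the highest means of the single-nerve series.

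Lyz2, the lysozyme of macrophages, was the largest member by CPM and took between 33.7% and 38.9% of the sum in pooled dSCs. Compared per kilobase of the longest coding transcript in single-nerve dSCs of days 4 to 10, Lyz2 led with 3753 ± 1852 CPM per kb (SD, n = 12). It was followed by C1qb with 899 ± 527, Ctss with 746 ± 384, C1qa with 471 ± 274 and C1qc with 468 ± 257 CPM per kb. The differences between neighbours in this order after Lyz2 were smaller than the SDs. The sum did not rest on Lyz2 and the next genes alone: without the 3 members of highest mean, the summed level of pooled dSCs was still higher than that of iSCs by 3.01 on the log2 scale.

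The comparison of pooled dSCs with iSCs asks what the cut adds to the sorted cells by day 6. Of the 34 members, 9 rose at an adjusted p under 0.05 (edgeR's quasi-likelihood test) and 0 fell, where 2.63% of the 13751 genes tested rose and 2.69% fell. All 34 log2 fold changes were positive, with a median of 2.42 against -0.02 over all genes tested. The 9 were Trem2, Clec7a, Gpnmb, Cd84, Cd68, Lyz1, C1qa, C1qc and Lgals3. In 18 members every dSC library exceeded every iSC library, which held for 7.56% of all genes tested (9.41% lay below). With the pool number of the labels as a replicate block, 3 members rose (Gpnmb, Cd84 and Lgals3). Without iSCs M5 32 rose, and without iSCs M1 4 rose. Here and below, shares over all genes are given for the main fits only. Counts of members from alternative fits therefore cannot be set against such a share.

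Complement C1q, the recognition molecule of the classical pathway, is made of the products of C1qa, C1qb and C1qc, which lie next to each other on chromosome 4. C1qa was at 38.4, 16.6, 86.4 and 334 CPM in pooled iSCs and at 755, 1356, 564 and 952 CPM in dSCs. C1qb was at 53.0, 25.2, 198 and 753 CPM in iSCs and at 1203, 2105, 1465 and 1750 CPM in dSCs. C1qc was at 57.2, 28.6, 145 and 490 CPM in iSCs and at 821, 1695, 1150 and 1039 CPM in dSCs. For all 3 chains the groups did not overlap, and the highest iSC library was M5. The log2 fold changes were 2.93 ± 0.74 (SE, adjusted p = 0.037) for C1qa, 2.66 ± 0.82 (adjusted p = 0.0846) for C1qb and 2.71 ± 0.72 (adjusted p = 0.0453) for C1qc. With the pool number as a block the adjusted p of C1qa was 0.138 and that of C1qc 0.204.

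Trem2, a lipid-sensing receptor of phagocytes, had the largest fold change. It was at 0.156, 0.458, 11.3 and 19.8 CPM in iSCs and at 199, 245, 143 and 248 CPM in dSCs, so that the groups were far apart (log2 fold change 4.72 ± 1.08, adjusted p = 0.0238, and 0.0932 with the pool block). Its signalling partner Tyrobp was at 11.2, 5.95, 40.1 and 233.5 CPM in iSCs and at 210, 303, 343 and 457 CPM in dSCs, where iSCs M5 reached above dSCs M1 and the log2 fold change was 2.17 ± 0.92 (adjusted p = 0.24). Clec7a, the beta-glucan receptor, was second among the members at 4.69 ± 0.97 (adjusted p = 0.0145, and 0.0528 with the pool block). Cd84, a receptor of the SLAM family, was at 6.16, 2.59, 15.8 and 17.1 CPM in iSCs and at 112, 244, 140 and 154 CPM in dSCs. Its log2 fold change was 3.97 ± 0.64 (adjusted p = 0.00335).

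Among lysosomal genes, Cd68 was at 24.9, 11.7, 79.6 and 202 CPM in iSCs and at 583, 807, 715 and 575 CPM in dSCs, without overlap (3.08 ± 0.71, adjusted p = 0.0254, and 0.133 with the pool block). Lyz2 was at 155, 102, 778 and 2949 CPM in iSCs and at 5981, 9499, 8326 and 8343 CPM in dSCs. Its groups did not overlap either, but its log2 fold change of 3.01 ± 0.84 had an adjusted p of 0.0555. Lyz1 and Lyz2 are neighbours on chromosome 10 whose transcripts are 96.0% identical over 1263 aligned bases. Reads that aligned equally to several places were not counted for any gene, so that both genes can be counted too low. Reads can also be placed on the wrong gene, so that the values of Lyz1 are uncertain. Lyz1 stood at 3.16% to 11.3% of the CPM of Lyz2 in 46 libraries and at 41.9% in single-nerve iSCs M5.

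The lineage genes did not pass the test in pooled dSCs. Csf1r was at 48.7, 18.6, 113 and 512 CPM in iSCs and at 331, 932, 507 and 408 CPM in dSCs, where iSCs M5 lay above 3 of the 4 dSC libraries (log2 fold change 1.65 ± 0.77, adjusted p = 0.301). Of the 5229 exonic bases of Csf1r, 871 overlap exons of Hmgxb3 on the other strand, and Smart-seq2 reads do not carry strand. Spi1 was at 5.93, 3.66, 14.5 and 60.8 CPM in iSCs and at 44.8, 149, 87.5 and 94.5 CPM in dSCs (2.15 ± 0.76, adjusted p = 0.147). Ptprc, the pan-leukocyte antigen CD45, was at 6.94, 3.10, 8.03 and 93.2 CPM in iSCs and at 62.0, 110, 75.4 and 97.5 CPM in dSCs (1.64 ± 0.95, adjusted p = 0.456). Mrc1 was at 41.0, 14.4, 66.0 and 305 CPM in iSCs and at 472, 564, 266 and 380 CPM in dSCs (1.98 ± 0.74, adjusted p = 0.172). In all 4 genes the library that overlapped dSCs was iSCs M5.

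Gpnmb and Lgals3, which cells other than macrophages are also known to express, did not share the high level of iSCs M5. Gpnmb was at 70.8, 112, 101.2 and 33.6 CPM in iSCs and at 1114, 1617, 1583 and 1089 CPM in dSCs (4.09 ± 0.63, adjusted p = 0.0026). Lgals3, galectin-3, was at 201, 271, 177 and 217 CPM in iSCs and at 860, 584, 919 and 603 CPM in dSCs (1.78 ± 0.27, adjusted p = 0.00254). In neither gene was iSCs M5 the highest iSC library, and Lgals3 had the smallest spread within groups of any member, with an SD of 0.36 in log2(CPM + 1). The smallest fold changes of the comparison belonged to Cd14, the lipopolysaccharide co-receptor (0.65 ± 0.78), the Fc receptor gene Fcgr1 (0.89 ± 0.99) and Coro1a, an actin regulator of leukocytes (0.97 ± 0.99), each with an adjusted p above the threshold.

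In the levels of the members, pooled bSCs differed less from iSCs than dSCs did. Of the 34 members 2 rose, Trem2 and Cd84, and 0 fell, where 7.24% of all genes tested rose and 7.46% fell. The share of members that rose was thus not above that of all genes. Over all genes tested 2022 were called in bSCs and 732 in dSCs against iSCs. The median log2 fold change was 1.25, with 32 of 34 positive and Cd14 (-0.67 ± 0.78) and Coro1a (-0.23 ± 0.98) below 0. In 4 members all bSC libraries exceeded all iSC libraries, a share close to the 10.5% of all genes. Trem2 was at 100.7, 198, 85.2 and 38.9 CPM in bSCs (M1, M2, M3 and M5), a log2 fold change of 3.74 ± 1.03 (adjusted p = 0.0273). Cd84 was at 29.5, 96.4, 64.3 and 20.9 CPM in bSCs (2.34 ± 0.60, adjusted p = 0.0194). With the pool block 0 members passed, without iSCs M5 24 passed, and without bSCs M2 0 passed, each without a share over all genes to set it against.

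The other named members of pooled bSCs fell between the remaining regions. C1qb was at 650, 1222, 639 and 303 CPM in bSCs and Lyz2 at 3093, 4006, 2048 and 1396 CPM, in each case below every dSC library except that C1qb in bSCs M2 exceeded dSCs M1. Csf1r was at 299, 336, 239 and 126 CPM, Cd68 at 281, 334, 118 and 117 CPM and Mrc1 at 131, 204, 99.0 and 41.4 CPM in bSCs. In these 3 genes iSCs M5 stood within or above the bSC libraries, and the log2 fold changes against iSCs were 0.53 ± 0.75, 1.42 ± 0.67 and 0.16 ± 0.72. The direction of Mrc1 turned when any of 4 libraries was left out, with values down to -0.23.

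Between pooled bSCs and dSCs all 34 log2 fold changes were negative (bSCs over dSCs), with a median of -1.16 against -0.07 over all genes tested. The 2 members that passed the test fell in bSCs, Gpnmb and Lgals3, where 3.11% of all genes fell and 2.31% rose. Gpnmb was at 418, 292, 40.9 and 107 CPM in bSCs (log2 fold change -2.66 ± 0.59, adjusted p = 0.0227), below every dSC library. Lgals3 was at 192, 284, 408 and 335 CPM in bSCs (-1.28 ± 0.27, adjusted p = 0.0182), also below every dSC library. In 13 members the bSC libraries all lay below the dSC libraries, which held for 8.62% of all genes (6.77% lay above). The smallest differences were those of Cd52 (-0.32 ± 1.05), Ms4a7 (-0.34 ± 0.74) and Ctss (-0.54 ± 0.88). In each of the 4 pools that gave both regions, most members were higher in dSCs, in 28, 32, 33 and 34 of 34 members (M1, M2, M3 and M5).

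**Figure D2:**
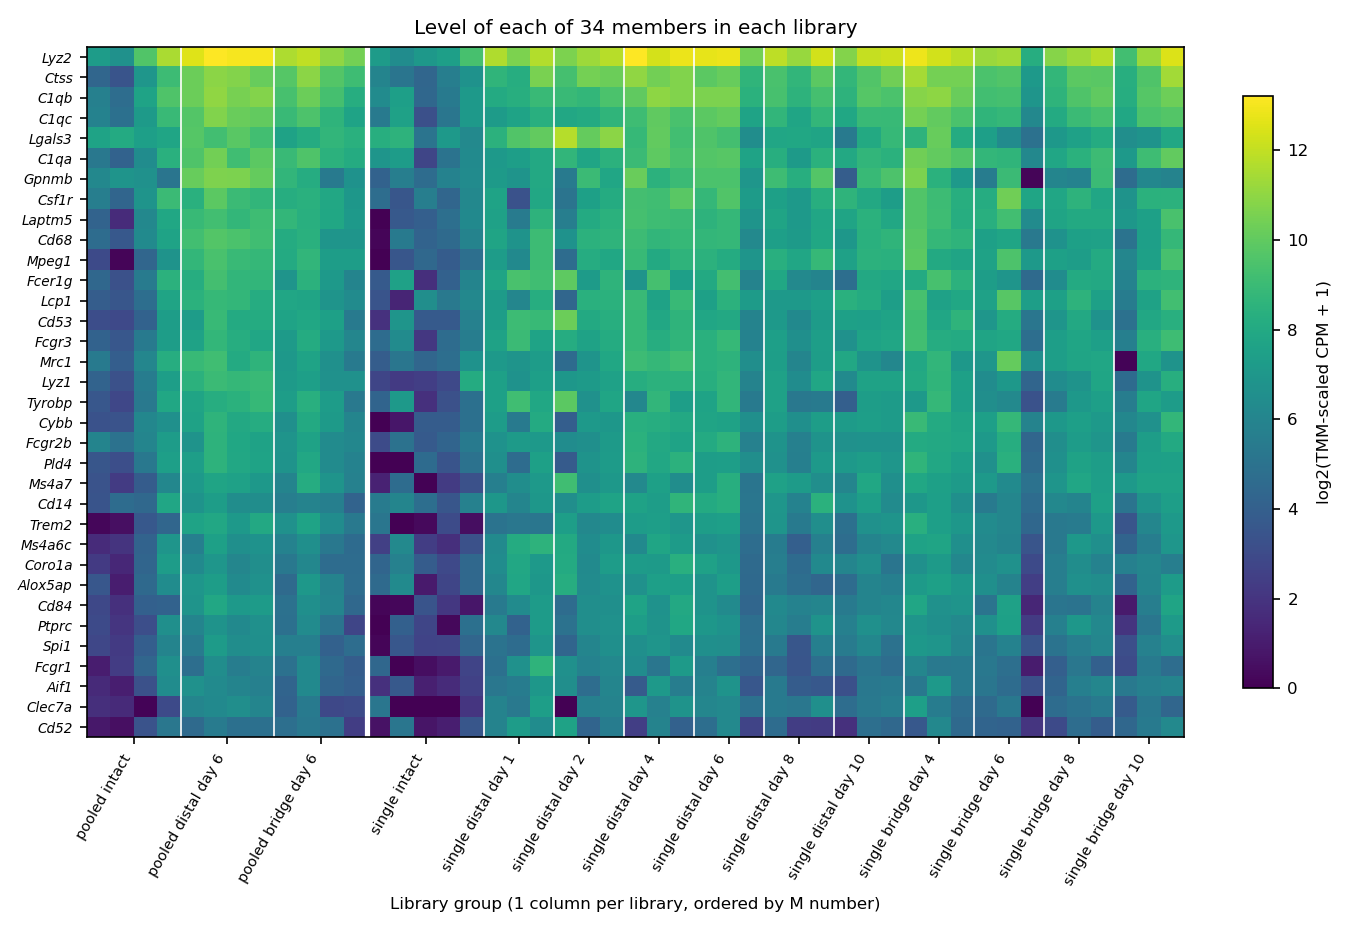
Level of each of the 34 members (rows, ordered by mean CPM) in each of the 47 libraries (columns, by group and M number) as log2(TMM-scaled CPM + 1). Lyz2 is the brightest row, pooled iSCs M5 stands out from the other intact columns, and bSCs and dSCs M3 of day 6 are darker than their neighbours.

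The time course of single nerves asks when these RNAs appeared. On days 1 and 2, 16 of 34 members rose in dSCs against iSCs and 0 fell, where 0.477% of the 15519 genes tested rose and 0.2% fell. All 34 fold changes were positive (median log2 2.93, against -0.09 over all genes), and in 14 members the groups did not overlap, against 1.29% of all genes. Without the 4 libraries of few genes 10 rose, in a fit of only the groups compared 1 rose, and without iSCs M4 3 rose. The shares over all genes in these fits are not given. The largest changes were those of Cd84 (4.78 ± 1.05, adjusted p = 0.0302), Fcgr1 (4.38 ± 0.99, adjusted p = 0.034) and Ms4a7, a membrane protein of macrophages (4.37 ± 0.82, adjusted p = 0.00835). Without the libraries of few genes the adjusted p of Cd84 was 0.165. The smallest were those of Lyz1 (1.35 ± 0.83), C1qa (1.67 ± 0.57) and Cd14 (1.67 ± 0.55), none of which passed.

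Lyz2 was at 153, 86.3, 129, 176 and 665 CPM in single-nerve iSCs and at 3176, 1544 and 3299 CPM on day 1 and 1535, 2501 and 3545 CPM on day 2 in dSCs. Each of these 6 libraries exceeded every iSC library, and the log2 fold change of days 1 and 2 was 3.43 ± 0.61 (adjusted p = 0.00504, and 0.0584 without the libraries of few genes). Ctss, an elastin-degrading cathepsin, had the lowest p of the comparison (4.05 ± 0.60, adjusted p = 5.35e-04). Cd68 ranged from 106 to 523 CPM in the 6 libraries (median 282) and from 0.140 to 60.2 CPM in iSCs, a log2 fold change of 3.32 ± 0.77 (adjusted p = 0.0358, and 0.0502 without the M1 pair of day 4). C1qb ranged from 265 to 698 CPM against 20.6 to 176 CPM in iSCs (2.28 ± 0.51, adjusted p = 0.0335, and 0.0588 without the libraries of few genes).

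On days 4 to 10, 24 of 34 members rose in dSCs and 0 fell, where 1.84% of all genes rose and 3.49% fell. The median log2 fold change was 2.82, against -0.08 over all genes, and all 34 were positive. In 14 members the 12 dSC libraries lay above the 5 iSC libraries, which held for 1.22% of all genes. The number that rose was 23 without the M1 pair of day 4 and 26 without the libraries of few genes. The largest changes were those of Cd84 (4.84 ± 1.02), Mpeg1, a pore-forming protein of phagocytes (4.41 ± 0.82), and Lyz2 (4.29 ± 0.62, adjusted p = 8.39e-05). The smallest were those of Lgals3 (1.03 ± 0.55), Cd52, a small surface glycoprotein of leukocytes (1.10 ± 0.86), and Alox5ap, needed for leukotriene synthesis (1.38 ± 0.67).

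In this window the lineage genes passed the test. Csf1r was at 25.8, 10.8, 48.5, 19.5 and 70.9 CPM in iSCs and at 138 to 923 CPM in dSCs (median 347), without overlap (3.39 ± 0.65, adjusted p = 0.0024). Spi1 was at 0.140, 11.1, 5.389, 5.499 and 19.32 CPM in iSCs and at 10.7 to 118 CPM in dSCs (median 58.9), with a log2 fold change of 2.80 ± 0.69 (adjusted p = 0.0168). Ptprc was at 0, 15.4, 5.86, 0.204 and 28.7 CPM in iSCs and at 27.0 to 233 CPM in dSCs (median 102; 3.24 ± 0.95, adjusted p = 0.0396, 0.0532 without the M1 pair of day 4 and 0.0972 without the libraries of few genes). Only the groups of Csf1r were fully separate, and Ptprc overlapped in a single pair of libraries, iSCs M5 and dSCs M3 of day 6.

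Each of the C1q chains passed the test. C1qa was at 118, 154, 5.86, 31.3 and 78.4 CPM in iSCs and at 146 to 988 CPM in dSCs (median 379), with a log2 fold change of 2.54 ± 0.56 (adjusted p = 0.00737). C1qb was at 80.6, 176, 20.6, 40.8 and 134 CPM in iSCs and at 350 to 1986 CPM in dSCs (3.31 ± 0.51, adjusted p = 2.02e-04). C1qc was at 40.3, 187, 8.24, 34.9 and 135 CPM in iSCs and at 200 to 1104 CPM in dSCs (2.71 ± 0.56, adjusted p = 0.0043). C1qb and C1qc did not overlap between the groups, whereas C1qa of iSCs M1 lay above the lowest dSC library.

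Trem2 was at 35.6, 0, 0.264, 6.98 and 0.408 CPM in iSCs and at 28.5 to 177 CPM in dSCs (3.63 ± 0.92, adjusted p = 0.0189). Cd68 was at 72.8 to 537 CPM (3.39 ± 0.73, adjusted p = 0.00617), above every iSC library. Gpnmb was at 16.9, 48.4, 24.0, 56.7 and 83.5 CPM in iSCs and at 13.8 to 1184 CPM in dSCs (3.54 ± 1.01, adjusted p = 0.0351, and 0.159 without the libraries of few genes). The lowest Gpnmb value of dSCs, in M0 of day 10, lay below all 5 iSC libraries. Mrc1 (2.48 ± 0.80, adjusted p = 0.0616) and Tyrobp (1.87 ± 0.79, adjusted p = 0.16) did not pass, but Tyrobp passed without the libraries of few genes (3.49, adjusted p = 0.0392).

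In bSCs of days 4 to 10, 23 of 34 members rose against iSCs and 0 fell, where 2.58% of all genes rose and 6.75% fell. The median log2 fold change was 2.75, against -0.15 over all genes, with 34 of 34 positive. In 6 members the groups did not overlap, against 0.599% of all genes. Without the M1 pair of day 4 20 rose, and without the libraries of few genes 27 rose. Ctss had the lowest p (4.196 ± 0.58, adjusted p = 2.93e-05), and Cd84 (4.77 ± 1.02), Mpeg1 (4.45 ± 0.82) and Ms4a7 (4.28 ± 0.79) the largest changes. Lgals3 had the smallest (0.15 ± 0.52, adjusted p = 0.937), and it was -0.05 without the M1 pair. In these bSCs Ptprc (adjusted p = 0.0381) and Mrc1 (0.0462) no longer passed without the M1 pair (0.0522 and 0.0707) or without the libraries of few genes (0.0833 and 0.179). Cd14 (1.17 ± 0.49) and Lyz1 (1.28 ± 0.76) came next and did not pass either.

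**Figure D3:**
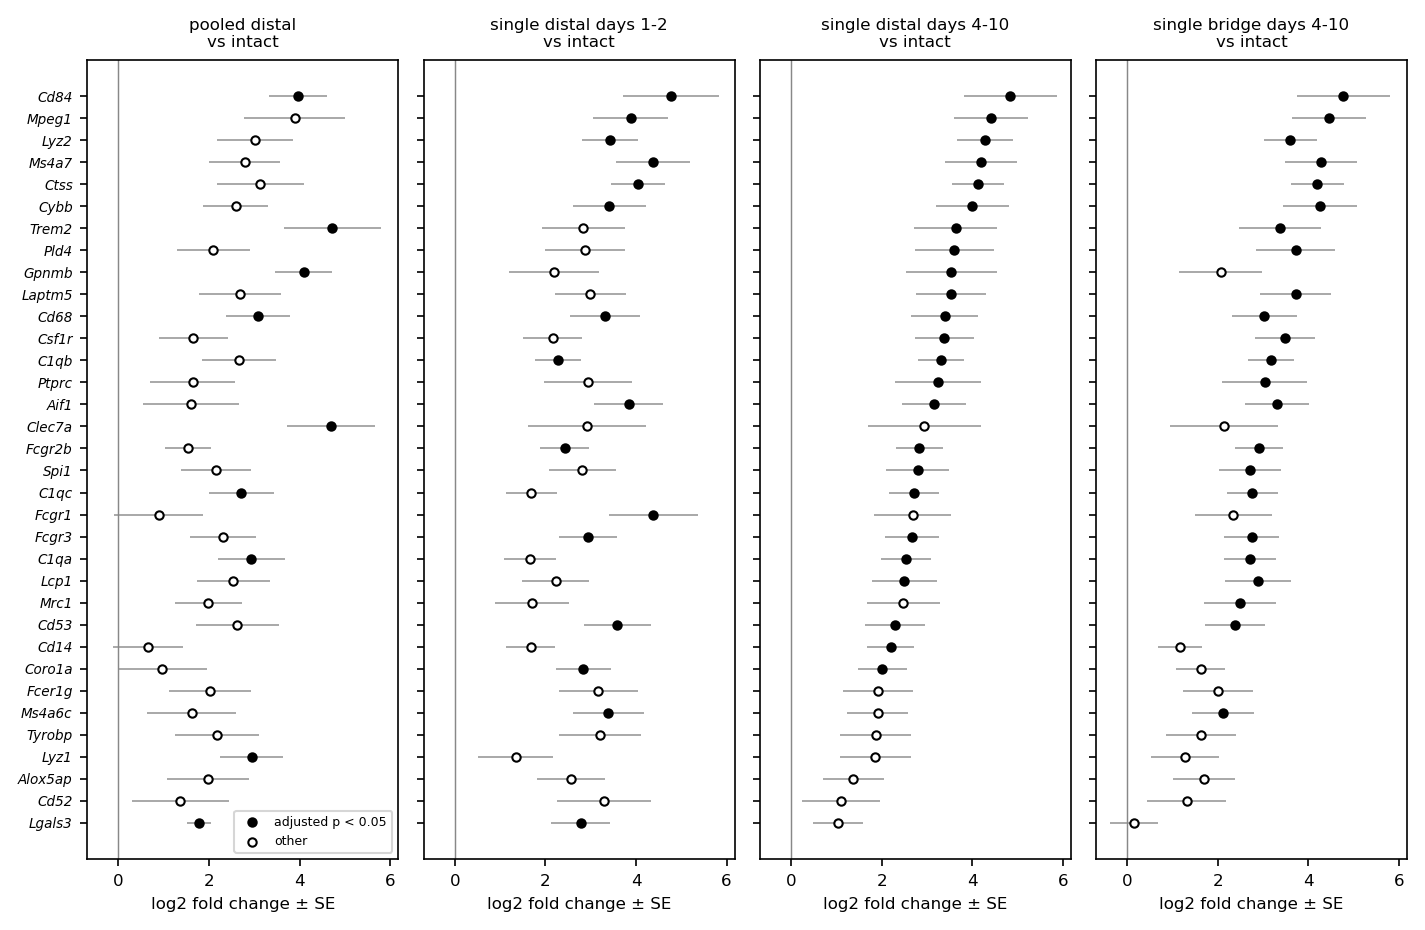
Log2 fold change ± SE of each of the 34 members against iSCs in 4 comparisons, in the order of single-nerve dSCs of days 4 to 10. Filled points passed an adjusted p of 0.05 (9, 16, 24 and 23 from left to right), and the points of all 34 members lie to the right of 0 in each panel.

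Between bSCs and dSCs of the same days 0 of 34 members passed the edgeR test, where 0% of all genes rose and 0.103% fell. At an unadjusted p under 0.05 there were 3 members, and DESeq2 called 0. Of the log2 fold changes (bSCs over dSCs) 19 were positive and the median was 0.04, with a range from -1.48 to 0.37. The lowest were those of Gpnmb (-1.48 ± 0.64, adjusted p = 0.448), Cd14 (-1.03 ± 0.36, adjusted p = 0.255) and Lgals3 (-0.89 ± 0.40, adjusted p = 0.482). With 10 of the mice that gave both regions as a replicate block, Lgals3 passed (-0.98 ± 0.22, adjusted p = 0.0453), and without the M1 pair of day 4 it did not (-1.05 ± 0.23, adjusted p = 0.0543). Gpnmb was at -2.60 ± 0.70 in the paired fit (adjusted p = 0.0813).

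Over days, the mean of most members was highest on day 4. In dSCs 24 of 34 members had their highest mean on day 4, 6 on day 2 and 4 on day 1, and in bSCs 30 had it on day 4, 3 on day 6 and 1 on day 10. Without the M1 pair of day 4 the mean was highest on day 4 for 22 members in dSCs and 30 in bSCs, and without the libraries of few genes for 25 and 30, with 1 member left on day 2 in dSCs. In dSCs 33 of 34 members were lower on days 8 and 10 than on days 4 and 6, Mpeg1 being the exception. The same counts over all genes are not given. The spread within days was nevertheless wide. In the F test over the 6 days of dSCs 0 members passed (0.0644% of all genes did), with 2 at an unadjusted p under 0.05, and DESeq2 called 1. Over the 4 days of bSCs 0 passed (0% of all genes), again with 2 at an unadjusted p under 0.05, and DESeq2 called 0.

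Lyz2 and C1qb show the day 4 pattern. In dSCs Lyz2 was at 9380, 5323 and 7258 CPM on day 4, at 6658, 7231 and 1377 CPM on day 6, at 3829, 2299 and 5071 CPM on day 8 and at 1763, 4191 and 4747 CPM on day 10. C1qb was at 1004, 1986 and 1700 CPM on day 4, at 1548, 1546 and 350 CPM on day 6, at 661, 370 and 632 CPM on day 8 and at 374, 857 and 713 CPM on day 10. In both genes the 3 libraries of day 4 lay above those of days 1, 2, 8 and 10, and the values of day 6 were split between 2 high libraries and M3. Without M1 the day 4 mean of dSCs was 8319 CPM for Lyz2 and 1352 CPM for C1qb, still above that of every other day. In bSCs C1qb was at 1776, 2022 and 1155 CPM on day 4 and at 589, 644 and 116 CPM on day 6.

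Lgals3 had its highest dSC values earlier, on day 2. Lgals3 was at 357, 784 and 1041 CPM on day 1, at 3452, 1105 and 1918 CPM on day 2, at 460, 1070 and 599 CPM on day 4, at 754, 607 and 89.6 CPM on day 6, at 227, 230 and 212 CPM on day 8 and at 43.0, 262 and 460 CPM on day 10. Every library of day 2 exceeded every later dSC library, and those of day 8 lay within the range of iSCs (305, 370, 32.4, 134 and 72.9 CPM). Against iSCs its log2 fold change was 2.78 ± 0.65 on days 1 and 2 (adjusted p = 0.0374) and 1.03 ± 0.55 on days 4 to 10 (adjusted p = 0.293), and its F test over days had an adjusted p of 0.382. Of the 34 members 13 had a higher mean on days 1 and 2 than on days 4 to 10, among them Lgals3, Tyrobp, Fcer1g, Cd53, Fcgr1 and Cd52. Without the libraries of few genes 16 did, and without the M1 pair of day 4 14 did. The ratio of the means of days 1 and 2 to days 4 to 10 was 3.45 for Lgals3 and 2.35 for Tyrobp, and without the libraries of few genes 2.64 and 1.15. In that setting the Tyrobp mean was 159 CPM on day 2 and 217 CPM on day 4, so that its highest mean on day 2 rested on dSCs M0.

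**Figure D4:**
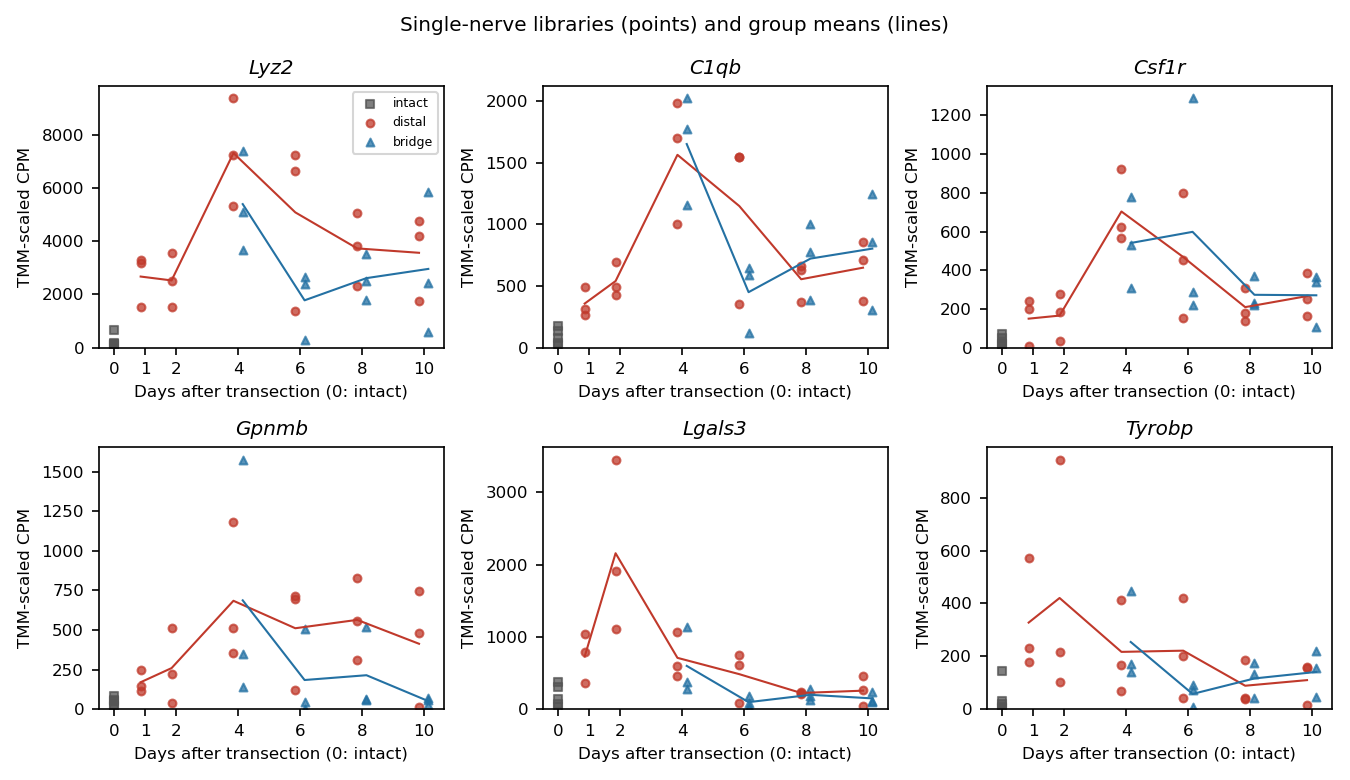
TMM-scaled CPM of Lyz2, C1qb, Csf1r, Gpnmb, Lgals3 and Tyrobp in single-nerve libraries by day after transection, with iSCs drawn at day 0; points are libraries and lines join group means. Lyz2, C1qb and Csf1r have their highest dSC means on day 4, and Lgals3 and Tyrobp have theirs on day 2, for Tyrobp through 1 library of 944 CPM.

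Transcript length moved with part of this early pattern, and its role in the pattern was not tested. The 5 members whose longest coding transcript is under 1 kb (Aif1, Tyrobp, Fcer1g, Cd52 and Alox5ap) were set against the 5 over 4 kb (Mrc1, Ptprc, Csf1r, Cybb and Mpeg1) by their summed CPM per kb. In injured single-nerve libraries the ratio of short to long was 51.1 in dSCs M1 of day 1 and 157 in dSCs M0 of day 2, the 2 injured libraries of few genes. It was between 0.519 and 6.23 in the 26 others, and 6.24 and 7.09 in the M1 pair of day 4. In iSCs it was 9.99 and 50.0 in M0 and M1, which also had few genes. Tyrobp, a short member that enters the ratio, was at 573 CPM in dSCs M1 of day 1, against 180 and 231 CPM in M0 and M2. It was at 944 CPM in dSCs M0 of day 2, against 102.8 and 216 CPM in M3 and M4. Csf1r, a long member that also enters the ratio, was at 8.97 CPM in that library of day 1, against 200 and 240 CPM. It was at 32.8 CPM in that of day 2, against 184 and 280 CPM. Some early members were not short. Cd53 (2802 bases) reached 1202 CPM and Ms4a7 (1576 bases) 562 CPM in dSCs M0 of day 2. Without the libraries of few genes, Ptprc (5814 bases) was among the members of higher mean on days 1 and 2.

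**Figure D5:**
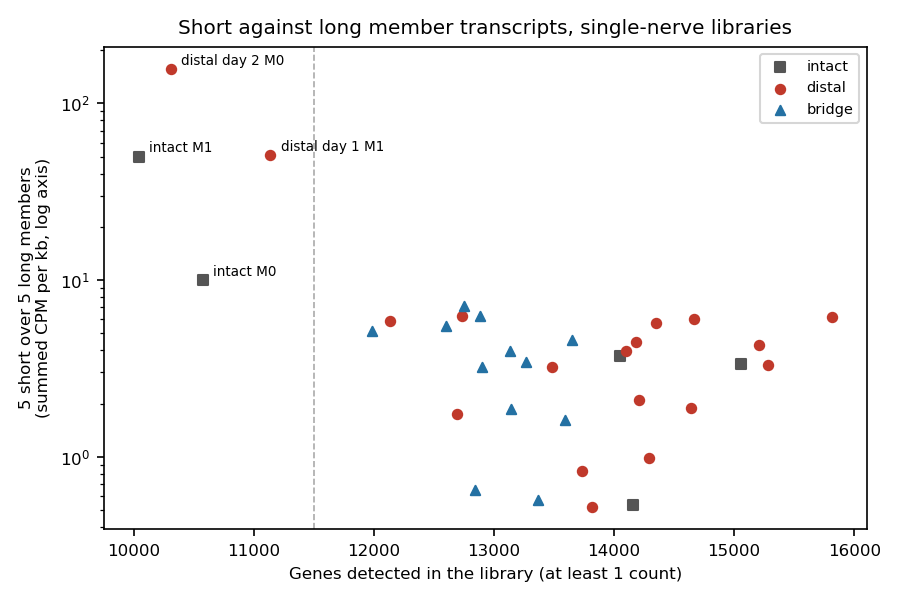
Ratio of 5 short to 5 long member transcripts (summed CPM per kb, log axis) against the number of genes detected in each single-nerve library; the dashed line sets off the libraries of few genes. The 4 libraries to its left have ratios of 9.99 to 157, and the injured libraries to its right reach at most 7.09.

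In many groups the libraries differed for most of the set at once, but no such count over all genes is given. In 9 of the 14 groups a single library was the highest for at least 20 of 34 members, and in 9 groups a single library was the lowest for at least 20. Pooled iSCs M5 was highest for 32 members, and pooled dSCs M2 and bSCs M2 were highest for 29 each. Other groups were split: among single-nerve iSCs M1 was highest for 15 members and M5 for 14. In dSCs of day 4 M0, M1 and M2 were highest for 13, 13 and 8. On day 6 the dSC and the bSC library M3, from the same mouse, were each the lowest of their group for 34 of 34 members, with 0.474% and 0.189% of gene counts on the set. The highest library of a group exceeded the lowest by 12.4 times in pooled iSCs, by 4.82 times in dSCs and 7.30 times in bSCs of day 6, by 6.68 times in bSCs of day 10 and by 1.18 times in dSCs of day 4 (1.07 times without M1). Within groups the median SD of the members was 1.27 in log2(CPM + 1) in pooled and 1.19 in single nerves, against 0.68 and 1.02 over all genes with a mean of at least 10 CPM.

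Regions of the same mouse can also be set side by side. By the animal label, 11 mice gave both regions in single nerves, and 7 of these had a higher summed level in dSCs and 4 in bSCs. For 1 mouse, with 5881 CPM in dSCs and 2828 CPM in bSCs of day 10, the title of the bSC sample goes against its animal label, and it was left out of the paired fit, which leaves 6 against 4. Without the M1 pair of day 4 as well, where the sums were 18933 CPM in dSCs and 18968 CPM in bSCs, 6 stood against 3. By share of gene counts the 10 mice stood 7 against 3. All 4 pools had the higher level in dSCs. On day 6 dSCs held 1.94%, 2.16% and 0.474% and bSCs of the same mice 0.792%, 1.39% and 0.189% of gene counts on the members, higher in dSCs each time. On day 8 dSCs held 1.14%, 0.656% and 1.33% and bSCs 0.602%, 0.987% and 1.20%, which went both ways.

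The other macrophage and myeloid genes, a list of 72 symbols, are given for comparison, and Arg1, Chil3 and Emr1 are named although they were chosen after their values were seen. In pooled dSCs 3 of 66 tested rose (Arg1, Slc11a1 and Lyn) and 0 fell, where 2.63% of all genes rose and 2.69% fell. In pooled bSCs 2 rose and 1 fell, against 7.24% and 7.46% of all genes, so that neither share exceeded that of all genes. In single nerves 12 of 69 rose in dSCs on days 1 and 2, where 0.477% of all genes rose. On days 4 to 10, 19 rose in dSCs (1.84% of all genes) and 22 in bSCs (2.58% of all genes). In these 3 comparisons 0 fell. Arg1, an arginine-degrading enzyme of alternatively activated macrophages, was at 190, 679 and 287 CPM on day 1 and 1309, 580 and 838 CPM on day 2, but at 7.57, 5.18 and 12.9 CPM on day 8, and at 0, 0, 12.3, 22.5 and 6.32 CPM in iSCs. Chil3, a chitinase-like protein of myeloid cells, was at 195, 172 and 234 CPM on day 1 and at most 61.3 CPM in any later dSC library. Retnla, a secreted product of alternatively activated macrophages and the listed gene of highest mean CPM in injured libraries, was at 531, 1681, 1234 and 1323 CPM in pooled dSCs, at 22.9, 106, 26.0 and 2.24 CPM in bSCs and at 164, 35.7, 362 and 705 CPM in iSCs. It fell in bSCs against dSCs by 4.92 ± 1.06 on the log2 scale (adjusted p = 0.0201). Ccr2, the receptor that recruits monocytes, rose in dSCs of days 4 to 10 (2.46 ± 0.56, adjusted p = 0.00963) and Emr1, the F4/80 antigen, did so too (3.47 ± 0.69, adjusted p = 0.00312).

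Markers of other cells moved with some of these results, and their part in them was not tested. The 8 mast cell genes summed to 1283 CPM in pooled iSCs M5 and 822 CPM in single-nerve iSCs M5, the intact libraries with the most macrophage RNA, against 1.88 to 80.4 CPM and 6.92 to 129 CPM in the other iSC libraries. None of the 5 tested mast cell genes passed in pooled dSCs and 4 fell in pooled bSCs, where 7.46% of all genes fell. In single nerves 3 of 7 fell in dSCs (3.49% of all genes) and 5 in bSCs (6.75% of all genes) of days 4 to 10. The neutrophil list summed to 76.3 to 105 CPM on day 1 and to 1.94 to 22.6 CPM in single-nerve iSCs. On days 1 and 2, 1 of its 7 tested genes rose, where 0.477% of all genes did. This was the receptor gene Csf3r, which rose in every comparison with iSCs. Of the 11 neutrophil genes found, Ngp and Ltf were at 0 in 45 of 47 libraries, Camp in 44, Elane in 42, S100a9 in 39, Mpo in 32, Retnlg in 27, Mmp8 in 25, S100a8 in 24, Csf3r in 1 and Cxcr2 in 0. S100a8 reached 76.8 CPM in a library of day 1. The endoneurial fibroblast list was highest among pooled iSCs in M5, at 36520 CPM against 8307 to 24850 CPM in the others. In pooled bSCs 3 of its 8 genes fell against dSCs and 0 rose, where 3.11% of all genes fell and 2.31% rose. The median log2 fold change was -2.65 with 0 of 8 positive, the direction of the 34 members. Against iSCs 0 of the 8 passed in pooled dSCs and 3 fell in pooled bSCs, where 7.46% of all genes fell. The T cell list reached at most 64.4 CPM in pooled dSCs, with Cd3d at 0 in 45 of 47 libraries but Cd28 in 18 and Cd4 in 22, and of the B cell list Pax5 was at 0 in all 47. Endothelial genes went down in single nerves, where 4 of 10 fell in dSCs of days 4 to 10, against 3.49% of all genes. The list summed to 1829 to 5246 CPM in iSCs and 415 to 650 CPM in dSCs of day 4. It reached 2445 CPM in dSCs of day 10 and 3955 CPM in bSCs of day 8, within the range of iSCs. In pooled nerves 3 of 10 log2 fold changes against iSCs were positive in dSCs and 7 of 10 in bSCs.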

How the data were processed

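Raw read counts per gene were deposited by the authors for each sequencing lane of 47 mouse libraries. Per the labels and the study's methods they came from TopHat2 (2.0.11) alignments to mm9 counted with HTSeq, and the strand setting of the counting is not given in the sources used here. Lanes of 1 library were summed, and reads on no gene (52.9% to 60.9% of the total) and the 92 spike-ins were left out. 6 rat libraries were not used. The symbols of the 34 members and of the other lists were chosen with earlier results of these data known.

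Each experiment was fitted once in edgeR (4.0.16, R 4.3.3) with TMM factors, filterByExpr and the quasi-likelihood test, with Benjamini-Hochberg adjustment over 13751 or 15519 genes and a threshold of 0.05. DESeq2 (1.42.0) was an alternative. All 34 members passed the filter in both experiments, and 30 passed the study's own (100 counts in 85% of libraries). Members given in every library were chosen by role (complement, lineage, adaptor and receptor, lysosome, leukocyte and scavenger genes, Lgals3 and Gpnmb), and the 3 largest and 3 smallest changes of a comparison could be named too. Pairs were taken from the animal identifier in the labels, except for 1 mouse of day 10 whose title and identifier conflict, which was left out. The deviations of the 10 same-animal pairs had a mean correlation of -0.0039 in pooled and 0.16 in single-nerve libraries. The single-nerve correlations lay between -0.13 and 0.68 and include the M1 pair of day 4. The scripts were tested on simulated data. Smart-seq2 reads carry no molecular identifiers, and no interval from counting was used.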

Additional observations from a re-analysis of the deposited data

Results flagged for a closer look

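Of 56 groups of values tested for a sample far from the rest (13 members and the summed level, in groups of at least 4 libraries), 6 held one, where chance gives about 1 in 20. All 6 were intact libraries. In pooled iSCs M5, Tyrobp was at 233.5 CPM (5.95 to 40.1 in the others) and Ptprc at 93.24 CPM (3.10 to 8.03). In single-nerve iSCs M5, Lyz2 was at 664.9 CPM (86.3 to 175.5) and Mrc1 at 104.1 CPM (14.1 to 35.2). Tyrobp was at 143.1 CPM in single-nerve iSCs M1 (2.59 to 28.8), and Trem2 at 35.57 CPM in iSCs M0 (0 to 6.98), both libraries of few genes.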

How the results depend on the processing

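The summed level kept its direction in all alternatives run. Counts of members that passed changed as follows. With DESeq2 they were 21 (pooled dSCs against iSCs), 7 (pooled bSCs against iSCs), 4 (pooled bSCs against dSCs), 28 (single dSCs of days 1 and 2) and 1 (days of dSCs). A replicate block on the pool number gave 3 and 0 for pooled dSCs and bSCs against iSCs, and with a lane covariate 15 and 4. With only the groups compared they were 0 for pooled bSCs against iSCs, 5 for pooled bSCs against dSCs, 1 for single dSCs of days 1 and 2 and 15 for single bSCs. The animal as a replicate block gave 1 for single bSCs against dSCs, and leaving out the libraries of few genes gave 10 for days 1 and 2, an alternative chosen after seeing the data. Leaving out 1 library gave 4 to 32 for pooled dSCs and 0 to 24 for pooled bSCs against iSCs, 1 to 2 for pooled bSCs against dSCs and 3 to 17 for days 1 and 2. The shares over all genes under these alternatives are not given, so that a change in a count may not be particular to the members. The causes were not tested.

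Of the values of single genes over all alternatives, 1813 kept direction and side of the threshold. In the same direction, 136 no longer passed the threshold and 60 newly passed it. The other 17 reversed. In pooled bSCs against iSCs, leaving out 1 library moved Ptprc between -0.31 and 2.62, Mrc1 between -0.23 and 1.55, Cd14 between -1.04 and 1.25 and Coro1a between -0.64 and 2.25. There Cd14 was 0.069 with the lane covariate, and Coro1a 1.29 with the pool block and 1.355 with the lane covariate. Cd52 in pooled bSCs against dSCs lay between -0.603 and 0.033. Lgals3 in single bSCs against iSCs lay between -0.10 and 0.62, and was -0.049 with the replicate block and -0.049 without the M1 pair of day 4. With 3 to 5 libraries in a group, members near the threshold could not be placed on either side with certainty.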
